A study of Homo sapiens with 4 samples.

Results

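The genes of glycolysis and of the hypoxia response were examined in HaCaT, an immortalised human keratinocyte line that grows as a monolayer, treated with M5 or with phosphate-buffered saline (PBS). The set holds 39 named genes, matched by gene symbol, and all 39 had a row among the 27356 genes of the tables. M5 combines 5 cytokines, each at 10 μg/L, namely oncostatin M, TNF-α, IL-1α, IL-17 and IL-22. There were 2 M5 and 2 PBS libraries of polyadenylated RNA, taken after 72 h from cells that were at 50% density when treated. Cells were kept at 37 °C in 5% CO2, and the labels name no oxygen setting. The treatment tag of the M5 libraries names 25 μM DAC, whereas M5 is what the titles, the growth protocol and the design text give, and groups here follow the titles. Whether the 2 libraries of a group came from separate cultures is not recorded, so the p-values rest on a spread between libraries that may be only technical. In such bulk samples, fewer cells of a kind and less RNA per cell cannot be told apart.

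Glycolysis splits glucose into pyruvate in the cytosol and yields ATP without oxygen. When oxygen is short, the prolyl hydroxylases of the EGLN family stop marking HIF alpha subunits for degradation, and the HIF dimer switches on glucose transporters, glycolytic enzymes and genes for blood vessel growth, pH control and mitochondrial turnover. HIF alpha is controlled mainly at the protein level, which RNA sequencing does not measure. In skin, keratinocytes sit above the vessels and are known to use glucose largely by glycolysis.

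The M5 libraries held 18992988 and 19749612 counts and the PBS libraries 15858644 and 16051974. Genes of the set made up 1.52% and 1.51% of the counts in M5, against 1.28% and 1.31% in PBS. All 8 keratinocyte markers examined exceeded 1 FPKM, whereas none of the 4 fibroblast, 4 melanocyte and 3 endothelial markers measured did. Of the 2 leukocyte markers measured, CD14 exceeded 1 FPKM, with 145 and 166 counts in M5 and 60 and 41 in PBS; CD3E had at most 2 counts. The other markers of these lists were not analysed here. Mitochondrial mRNAs took 3.42% and 3.73% of the counts in M5, against 4.29% and 4.09% in PBS. The part of CD14-expressing cells or of mitochondrial RNA in the results was not tested.

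Of the 39 genes, 32 passed a filter of a mean of at least 1 FPKM (a count divided by gene length and by the library's total) over the 4 libraries. By edgeR's quasi-likelihood test at an adjusted p under 0.05, 25 of the 32 rose with M5 and 2 fell, PFKM and PFKFB2. Over all 10809 genes tested, 28.8% rose and 27.1% fell. At least 2-fold, 9 members rose and 0 fell, against 6.48% and 3.14% of all genes. The 9 were CA12, ENO2, NDRG1, BNIP3, ADM, SLC16A3, HIF1A, P4HA2 and PFKFB3. The median log2 fold change was 0.58 over the members tested and -0.01 over all genes tested. The members were chosen with earlier results of these data known, so the counts and the median are a description and not a test. CA12 and ENO2 had a PBS mean under 1 FPKM and passed the filter through M5; with no filter, 26 of 39 members rose and 2 fell, where 12.4% and 9.99% of all 27356 genes did.

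The counts depended on how libraries were scaled. TMM, which assumes that most genes do not change, is used throughout unless said otherwise. Levels in CPM, counts relative to the library's size, are scaled by it. Under TMM 28.8% of all genes tested were called higher and 27.1% lower, and whether its assumption holds was not tested. Its factors were 0.946 and 0.952 in M5 and 1.054 and 1.053 in PBS. With library totals in place of TMM 20 members rose and 3 fell, where 20.4% of all genes rose and 41.3% fell. With TPM scaling 19 rose and 3 fell, where 18.8% rose and 43.8% fell. The median of all genes tested was then -0.16 and -0.19. Of the 25 genes, 19 rose under all 3 scalings. With limma on log2(FPKM + 1) 19 rose and 3 fell, where 18.6% and 38.1% of all genes did; SLC2A1 (0.071), TPI1 (0.10), GAPDH (0.073), ENO1 (0.021), PFKFB4 (0.25) and PGAM1 (-0.025) were not called there (adjusted p = 0.315, 0.114, 0.227, 0.732, 0.109 and 0.674), and GPI was called lower (-0.20, adjusted p = 0.0153). With each library left out in turn, 25 members rose without M5 replicate 1, 26 without M5 replicate 2, 23 without PBS replicate 1 and 22 without PBS replicate 2, and 2 fell each time. Of all genes 28.9%, 28.8%, 24.3% and 24.7% then rose and 26.2%, 26.8%, 21.7% and 21.5% fell. In 27 of the 32 genes both M5 libraries lay above both PBS libraries (37.8% of all genes tested), and in 3 both lay below (39.4%). The 6 genes whose call was lost in some fit, SLC2A1, TPI1, GAPDH, PGAM1, ENO1 and PFKFB4, are described with their values.

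**Figure D1:**
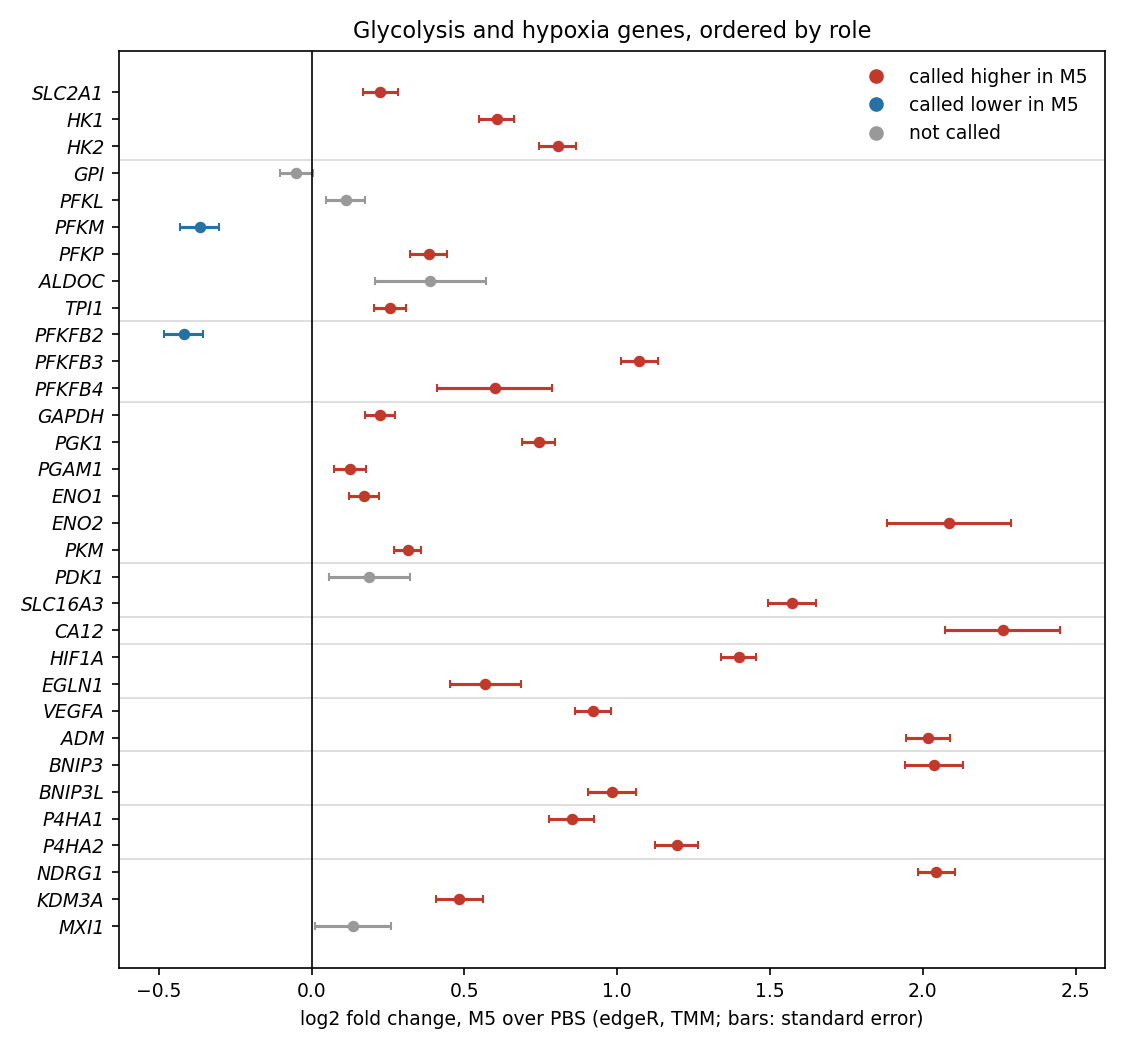
Log2 fold change of M5 over PBS for the 32 genes tested (horizontal axis; edgeR with TMM), ordered by role from glucose entry at the top to other hypoxia targets at the bottom. Bars are standard errors, from 2 libraries a group. With TMM in edgeR, CA12 has the highest value at 2.26 and PFKFB2 the lowest at -0.42.

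The enzymes and carriers of the glycolytic chain, from glucose entry to pyruvate kinase, gave mostly small values. Of 15 tested chain genes 11 rose and 1 fell, with a median log2 fold change of 0.26; with library totals 6 rose and 2 fell (median 0.11), and with TPM scaling likewise 6 and 2 (median 0.075). Of the 17 other members tested 14 rose and 1 fell, with a median of 0.98; with library totals the counts were 14 and 1, and with TPM scaling 13 and 1. Of all genes tested 28.8% rose and 27.1% fell, 20.4% and 41.3% with library totals and 18.8% and 43.8% with TPM scaling. Summed FPKM, a level per gene length scaled by library totals, was 2630 and 2620 for the chain in M5 and 2400 and 2447 in PBS. For the other members the sums were 314 and 320 FPKM in M5 and 148 and 150.2 FPKM in PBS. No test was made of the difference between these groups of genes.

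Glucose enters the cell through transporters and is trapped by hexokinases. Both hexokinases rose. HK2, the inducible form (ENSG00000159399, GRCh38 chromosome 2, 74833981 to 74893359), had 198 and 180.4 CPM in M5, against 107 and 109.7 CPM in PBS. Its level was 1.75-fold higher (log2 fold change 0.80, SE 0.06, edgeR adjusted p = 1.99e-09). HK1, the housekeeping form, was 1.52-fold higher, with 377 and 345 CPM in M5, against 236 and 238 CPM in PBS. For each gene both M5 libraries lay above both PBS libraries. SLC2A1, which encodes the transporter GLUT1, had 186 and 197.5 CPM in M5, against 167.5 and 160.5 CPM in PBS. That log2 fold change of 0.23 (edgeR adjusted p = 0.00294) was 0.074 with library totals and 0.044 with TPM scaling and did not pass there (adjusted p = 0.284 and 0.525), nor without PBS replicate 2 (0.19, adjusted p = 0.0776). SLC2A3, a high-affinity transporter best known from neurons, lay below the filter, with 111 and 101 counts in M5 and 91 and 97 in PBS.

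The upper steps went in both directions. Phosphofructokinase is a tetramer built from 3 related subunits, and these diverged. PFKP, the platelet-type subunit and the most abundant per length here, had 568 and 502 CPM in M5, against 404 and 416 CPM in PBS, 1.30-fold higher (log2 fold change 0.38, SE 0.06, edgeR adjusted p = 2.62e-05). PFKM, the muscle-type subunit, had 76.9 and 82.8 CPM in M5, against 101 and 105 CPM in PBS, 1.29-fold lower (log2 fold change -0.37, SE 0.06, edgeR adjusted p = 7.45e-05). The 2 M5 libraries were thus the low ones for PFKM. PFKM shares 8.58% of its exonic bases with SENP1 on the other strand, and whether strand was used in counting is not given. SENP1 had 634 and 670 counts in M5 and 792 and 910 in PBS, and its part in the PFKM value was not tested. PFKL, the liver-type subunit, overlapped between the groups, with 155 and 137 CPM in M5 and 133 and 137.5 CPM in PBS (log2 fold change 0.11, edgeR adjusted p = 0.154). Without M5 replicate 2 the PFKL value was 0.20 (adjusted p = 0.00228), and it was below 0 with library totals and TPM scaling.

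Values of the isomerases and of ALDOC were within 0.39 of 0 on the log2 scale. GPI, which turns the first phosphorylated sugar into its fructose form, had 313 and 301 CPM in M5 and 321 and 314 CPM in PBS, and was not called (log2 fold change -0.05, edgeR adjusted p = 0.449). With library totals its value was -0.20 (adjusted p = 0.00331) and with TPM scaling -0.23 (adjusted p = 0.00161), so its call rested on the scaling. TPI1, triose phosphate isomerase, had 573 and 607 CPM in M5 and 495 and 492 CPM in PBS. This log2 fold change of 0.26 (edgeR adjusted p = 0.000445) was 0.11 with library totals and 0.075 with TPM scaling (adjusted p = 0.0945 and 0.219). ALDOC, an aldolase known from brain, had 8.46 and 8.83 CPM in M5 and 6.46 and 6.74 CPM in PBS; the groups did not overlap, and the test did not call it (edgeR adjusted p = 0.0783).

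The PFKFB enzymes also diverged; they make and remove the allosteric activator of phosphofructokinase. PFKFB3, whose product favours synthesis of the activator (ENSG00000170525, chromosome 10, 6144934 to 6254644), had 354 and 337 CPM in M5, against 173 and 156 CPM in PBS. It was 2.10-fold higher (log2 fold change 1.07, SE 0.06, edgeR adjusted p = 2.35e-11). The PFKFB3 value was below 2-fold with library totals (0.92), TPM scaling (0.89) and limma on log2(FPKM + 1) (0.90). PFKFB2, the form known from heart (chromosome 1, 207034366 to 207081024), had 70.7 and 65.8 CPM in M5, against 89.7 and 92.8 CPM in PBS, 1.34-fold lower (log2 fold change -0.42, SE 0.06, edgeR adjusted p = 2.07e-05). Both calls held under each of the 12 alternatives run. PFKFB4 was scarce, with 171 and 162 counts in M5 and 108 and 93 in PBS; its value of 0.60 (edgeR adjusted p = 0.0113) did not pass with TPM scaling (0.42, adjusted p = 0.063) or without PBS replicate 2 (0.49, adjusted p = 0.0927).

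In the later steps of the pathway, PGK1 and ENO2 moved most. PGK1, phosphoglycerate kinase, makes the first ATP of the payoff phase (chromosome X, 77910739 to 78129296). It had 912 and 986 CPM in M5, against 569.9 and 563 CPM in PBS, 1.67-fold higher (log2 fold change 0.74, SE 0.05, edgeR adjusted p = 9.37e-10). PKM, pyruvate kinase, had 5350 and 5260 CPM in M5 and 4223 and 4310 CPM in PBS. It was 1.24-fold higher, and still called with library totals (log2 fold change 0.16) and TPM scaling (0.13). ENO2, the enolase known from neurons (chromosome 12, 6913745 to 6923698), had 266 and 250 counts in M5, against 65 and 46 in PBS. That was 4.25-fold higher (log2 fold change 2.09, SE 0.20, edgeR adjusted p = 5.32e-08), with the M5 libraries well apart from the PBS libraries. With limma on log2(FPKM + 1), which compresses the change of low genes, it was 1.19 and still called.

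The calls of GAPDH, ENO1 and PGAM1, abundant genes of the later steps, depended on the scaling. GAPDH, often used as a control gene, had 1812 and 1799 CPM in M5 and 1515 and 1578 CPM in PBS. The GAPDH log2 fold change of 0.22 (edgeR adjusted p = 0.00075) was 0.073 with library totals and 0.042 with TPM scaling, neither called (adjusted p = 0.208 and 0.459), nor was it called without PBS replicate 1 (0.19, adjusted p = 0.0646). ENO1, the main enolase, was at 0.17 (edgeR adjusted p = 0.00588), at 0.021 with library totals and at -0.0086 with TPM scaling (adjusted p = 0.723 and 0.89); without PBS replicate 1 it was at 0.14 (adjusted p = 0.187). PGAM1, phosphoglycerate mutase, passed narrowly at 0.13 (edgeR adjusted p = 0.0497) and turned to -0.025 with library totals and -0.055 with TPM scaling (adjusted p = 0.7 and 0.365). Without PBS replicate 1 or 2 the PGAM1 value was 0.16 and 0.094 (adjusted p = 0.152 and 0.419), and among genes of at least 5 FPKM it was 0.094 (adjusted p = 0.123). GAPDH has 62 named pseudogenes in GENCODE 29, of which 15 had a row, and these summed to 74 and 75 counts in M5 and 54 and 88 in PBS.

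**Figure D2:**
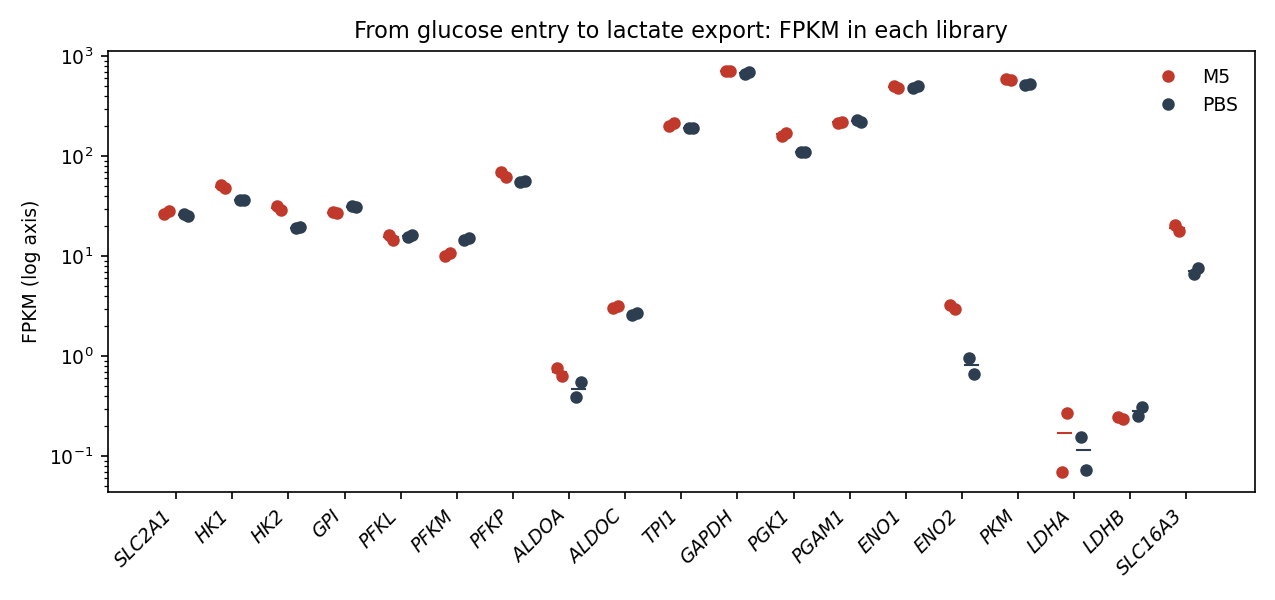
FPKM (log axis) of genes from glucose entry to lactate export in each of the 2 M5 libraries (left of each pair) and 2 PBS libraries (right); short lines are group means. GAPDH lies between 667 and 716 FPKM in the 4 libraries, whereas ALDOA, LDHA and LDHB lie below 1 FPKM.

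Pyruvate leaves glycolysis as lactate, through lactate dehydrogenase and export, or enters mitochondria. SLC16A3 encodes MCT4, the exporter of lactate from glycolytic cells (ENSG00000141526, chromosome 17, 82228397 to 82261129). It had 202 and 173 CPM in M5, against 58.7 and 67.3 CPM in PBS, 2.97-fold higher (log2 fold change 1.57, SE 0.08, edgeR adjusted p = 2.82e-12). The groups were far apart. SLC16A3 shares 5.36% of its exonic bases with CSNK1D on the other strand, which had 2749 and 2550 counts in M5 and 2170 and 2129 in PBS; its part in the SLC16A3 value was not tested. PDK1, the kinase that shuts pyruvate dehydrogenase, overlapped between groups, with 358 and 435 counts in M5 and 357 and 278 in PBS (log2 fold change 0.19, edgeR adjusted p = 0.24). Without PBS replicate 1 its value was 0.39 (adjusted p = 0.0397).

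The main aldolase and both lactate dehydrogenase genes, whose products are abundant in most cultured cells, had almost no counts. LDHA had 8 and 32 counts in M5 and 15 and 7 in PBS, LDHB 14 and 14 in M5 and 12 and 15 in PBS, and ALDOA 56 and 48 in M5 and 24 and 34 in PBS. On so few counts these genes could not be compared. None was called without a filter (edgeR adjusted p = 0.528 for LDHA, 0.969 for LDHB and 0.116 for ALDOA). In GENCODE 29, 53.5% of the exonic bases of ALDOA and 33.4% of those of LDHB also belong to another gene, and 0% of those of LDHA. Also below the filter, CA9 and ANKRD37 share 38.5% and 35.2%, and SLC2A3 and EGLN3 0% each. The highest share among the 32 genes tested is 14.2%, for GAPDH. LDHA has 6 named pseudogenes, of which 3 had a row, with 21 and 14 counts in M5 and 12 and 13 in PBS, about as many as LDHA itself. Whether shared bases or pseudogenes lowered these counts was not tested, and the annotation used for counting is not given in the sources used here.

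Genes of the HIF response outside glycolysis included most of those that rose at least 2-fold. HIF1A itself, the oxygen-regulated subunit (ENSG00000100644, chromosome 14, 61695513 to 61748259), had 355 and 374 CPM in M5, against 139 and 137 CPM in PBS. Its mRNA was 2.63-fold higher (log2 fold change 1.40, SE 0.06, edgeR adjusted p = 1.40e-13), and each PBS library lay far below each M5 library. EGLN1, the main HIF prolyl hydroxylase, had 25.8 and 22.7 CPM in M5, against 16.2 and 16.5 CPM in PBS, 1.48-fold higher (edgeR adjusted p = 0.000409). EGLN3, a hydroxylase induced by HIF, was near its detection limit, with 37 and 30 counts in M5 and 9 and 0 in PBS. Tested without a filter its log2 fold change was 2.76 (edgeR adjusted p = 0.0173), and this call was lost without M5 replicate 1 (2.58, adjusted p = 0.412) or M5 replicate 2 (2.94, adjusted p = 0.354). Without PBS replicate 2 the EGLN3 value was 1.79 and without PBS replicate 1 it was 8.04, the last against 0 counts and so set by the prior count of the fit.

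NDRG1, a stress-responsive protein widely used as a hypoxia marker (ENSG00000104419, chromosome 8, 133237171 to 133302022), had 318 and 333 CPM in M5, against 77.4 and 80.5 CPM in PBS. It was 4.13-fold higher (log2 fold change 2.04, SE 0.06, edgeR adjusted p = 9.71e-16). KDM3A, a histone demethylase induced by HIF, rose less, 1.40-fold, with 56.6 CPM in each M5 library and 39.3 and 41.6 CPM in PBS. MXI1, an antagonist of MYC, had 351 and 369 counts in M5 and 273 and 327 in PBS and was not called (edgeR adjusted p = 0.375). ANKRD37, a small ankyrin protein, lay below the filter, with 33 and 32 counts in M5 and 20 and 13 in PBS. For NDRG1 and KDM3A both M5 libraries stood clear of PBS.

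The secreted vascular factors both rose. ADM, which encodes the vasodilator adrenomedullin (chromosome 11, 10304680 to 10307397), had 104 and 103 CPM in M5, against 24.8 and 26.4 CPM in PBS, 4.05-fold higher (log2 fold change 2.02, SE 0.07, edgeR adjusted p = 1.77e-14). VEGFA, the endothelial growth factor (chromosome 6, 43770184 to 43786487), had 273 and 286 CPM in M5, against 143 and 152 CPM in PBS. It was 1.89-fold higher (log2 fold change 0.92, SE 0.06, edgeR adjusted p = 1.13e-10), again without overlap.

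Among receptors that mark mitochondria for removal by autophagy, BNIP3 (ENSG00000176171, chromosome 10, 131966455 to 131982013) had 65.9 and 75.9 CPM in M5, against 17.3 and 17.3 CPM in PBS. Its level was 4.11-fold higher (log2 fold change 2.04, SE 0.09, edgeR adjusted p = 8.84e-13). BNIP3L, its relative also called NIX, had 67.1 and 74.4 CPM in M5, against 34.8 and 36.7 CPM in PBS, 1.98-fold higher (edgeR adjusted p = 4.12e-09). For both genes the groups stood clear of each other.

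The carbonic anhydrases CA9 and CA12 hydrate CO2 outside the cell and so handle the acid that glycolysis leaves. CA12 (chromosome 15, 63321378 to 63382161) had 256 and 280 counts in M5, against 50 and 52 in PBS, 4.80-fold higher (log2 fold change 2.26, SE 0.19, edgeR adjusted p = 5.76e-09). With limma on log2(FPKM + 1) the CA12 value was 1.03, below those of ADM (1.78), NDRG1 (1.75) and BNIP3 (1.68), and still called. CA9, a classical HIF target, had 4 and 5 counts in M5 and 2 and 4 in PBS, too few for a comparison. Per gene length, CA12 was at 1.93 and 2.03 FPKM in M5 and 0.451 and 0.463 FPKM in PBS, and CA9 was at most at 0.158 FPKM in any library.

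Collagen prolyl 4-hydroxylases, which need oxygen and stabilise collagen helices, also rose. P4HA2 (chromosome 5, 132191838 to 132295315) had 88.1 and 90.1 CPM in M5, against 37.6 and 40.3 CPM in PBS, 2.29-fold higher (log2 fold change 1.19, SE 0.07, edgeR adjusted p = 3.30e-11). With limma on log2(FPKM + 1) the P4HA2 value was 0.89, below 2-fold, and still called. P4HA1 had 79.5 and 84.9 CPM in M5, against 42.9 and 48.2 CPM in PBS, 1.80-fold higher (edgeR adjusted p = 1.16e-08). Neither gene overlapped between the groups.

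**Figure D3:**
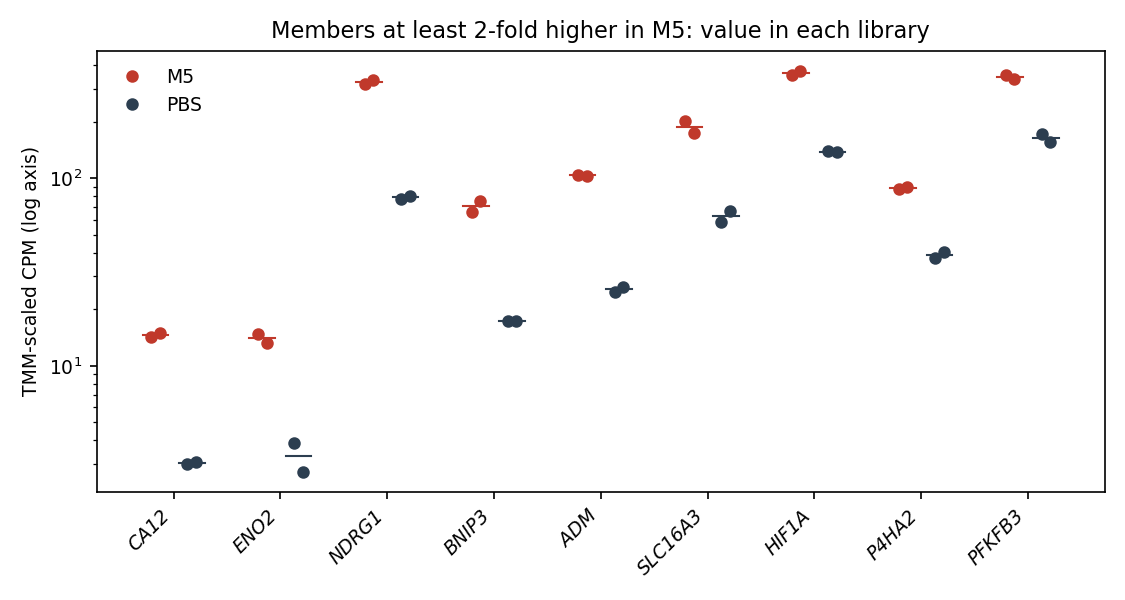
TMM-scaled CPM (log axis) in each library for the 9 genes that rose at least 2-fold with M5; points are the 2 M5 libraries (left of each pair) and the 2 PBS libraries (right), and short lines are group means. In each gene both M5 points lie above both PBS points.

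Related genes within a family can be set against each other inside 1 library, by their share of the family's summed FPKM, and such shares do not depend on scaling between libraries. With 2 libraries a group the smallest exact two-sided permutation p is 0.333, so shares are described without a test. PFKFB3 made up 87.2% and 87.5% of PFKFB FPKM in M5, against 74.1% and 71.8% in PBS. BNIP3 made up 50.2% and 51.1% of the BNIP3 and BNIP3L sum in M5, against 33.7% and 32.5% in PBS. In both families the groups were far apart compared with the gap between replicates. PFKM held 10.5% and 12.5% of phosphofructokinase FPKM in M5, against 17.2% and 17.4% in PBS, while PFKP held 72.3% and 70.7% in M5, against 64.3% and 64.2% in PBS. HK2 held 37.9% and 37.8% of the hexokinase sum in M5, against 34.5% and 34.9% in PBS, and P4HA2 25.3% and 24.5% in M5, against 21.1% and 20.3% in PBS. These shifts were smaller. ENO2 stayed a minor enolase, at 0.642% and 0.605% in M5, against 0.200% and 0.134% in PBS, and SLC2A3 held 2.94% and 2.42% of its pair in M5, against 2.88% and 3.16% in PBS, with overlap.

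**Figure D4:**
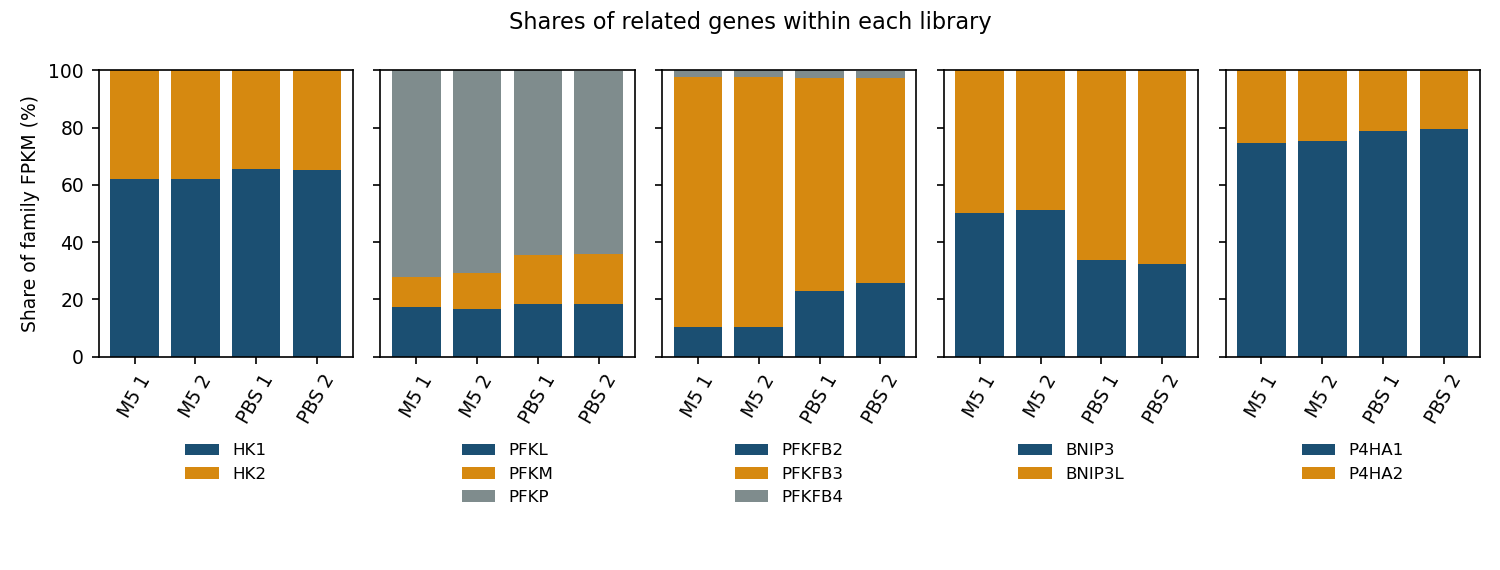
Share of each gene in the summed FPKM of its family (percent, stacked to 100) in M5 libraries 1 and 2 and PBS libraries 1 and 2. BNIP3 holds 50.2% and 51.1% in M5, against 33.7% and 32.5% in PBS, and PFKFB2 holds 10.5% and 10.3% in M5, against 23.1% and 25.7% in PBS.

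HIF binds a short core, ACGTG or GCGTG, in the DNA near its targets. Promoters were read from RefSeq on GRCh38.p14, as 250 bases before and 50 from each start, for 34 of the 39 genes; not matched were BNIP3L, NDRG1, PFKFB2, SLC2A3 and VEGFA. Of 64 such windows, since some genes have several starts, 43 (67.2%) held the core on either strand. Of the 11722 windows of all tested genes 61.8% held it, and of all 35116 windows 48.4%. Median GC content was 68.3% in windows of the set, 65.3% in those of tested genes and 58.7% in all; the part of base composition in these shares was not tested. By call, 27 of 41 windows (65.9%) of genes that rose held the core, counting EGLN3 by its call without a filter. The core was in 2 of 7 windows of PFKM and in 14 of 16 (87.5%) of genes not called. Those not called include ALDOA, LDHA, LDHB, CA9 and ANKRD37, which lay below the filter. Windows of 1 gene can overlap, so they are not independent. The sites TTCNNNGAA, known from STAT factors, and TGANTCA, known from AP-1, were matched in 2 and 5 of the 64 windows (3.12% and 7.81%), against 7.66% and 7.71% of all windows. For these sites the share over windows of tested genes was not computed, and the part of base composition was not tested. To show where the cores lie, promoters are given for CA12, ENO2, BNIP3, ADM, SLC16A3 and HIF1A, which rose 2.63-fold to 4.80-fold, 5′ to 3′ on the gene's strand, with core matches on either strand in capitals. For genes with several starts, SLC16A3 and HIF1A, the start nearest the 5′ end of the gene is given.
CA12: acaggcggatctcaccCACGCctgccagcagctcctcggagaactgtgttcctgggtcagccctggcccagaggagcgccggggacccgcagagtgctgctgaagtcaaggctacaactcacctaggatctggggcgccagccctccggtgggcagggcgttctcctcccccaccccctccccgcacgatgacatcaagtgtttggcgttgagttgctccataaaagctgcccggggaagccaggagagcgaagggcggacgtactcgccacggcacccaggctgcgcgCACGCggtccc
ENO2: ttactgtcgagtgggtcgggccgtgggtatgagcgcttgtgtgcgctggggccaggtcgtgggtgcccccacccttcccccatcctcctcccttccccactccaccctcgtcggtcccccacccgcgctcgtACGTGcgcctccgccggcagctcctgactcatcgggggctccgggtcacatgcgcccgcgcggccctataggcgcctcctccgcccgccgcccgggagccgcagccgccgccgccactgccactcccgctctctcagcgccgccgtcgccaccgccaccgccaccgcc
BNIP3: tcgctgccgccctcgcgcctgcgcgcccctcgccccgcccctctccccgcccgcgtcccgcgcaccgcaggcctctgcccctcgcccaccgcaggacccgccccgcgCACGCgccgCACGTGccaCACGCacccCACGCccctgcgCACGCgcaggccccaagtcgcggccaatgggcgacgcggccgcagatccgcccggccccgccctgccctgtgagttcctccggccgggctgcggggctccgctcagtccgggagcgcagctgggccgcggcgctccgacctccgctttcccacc
ADM: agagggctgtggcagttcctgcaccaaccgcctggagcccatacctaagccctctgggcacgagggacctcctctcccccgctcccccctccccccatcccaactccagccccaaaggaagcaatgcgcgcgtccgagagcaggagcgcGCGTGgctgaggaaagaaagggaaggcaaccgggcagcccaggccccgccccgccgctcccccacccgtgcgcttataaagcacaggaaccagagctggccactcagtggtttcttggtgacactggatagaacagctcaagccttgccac
SLC16A3: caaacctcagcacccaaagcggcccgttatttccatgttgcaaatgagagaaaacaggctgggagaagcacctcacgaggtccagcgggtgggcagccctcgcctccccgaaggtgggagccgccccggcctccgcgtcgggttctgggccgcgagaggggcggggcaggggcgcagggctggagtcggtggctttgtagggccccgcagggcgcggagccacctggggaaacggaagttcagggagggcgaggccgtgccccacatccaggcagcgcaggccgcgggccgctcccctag
HIF1A: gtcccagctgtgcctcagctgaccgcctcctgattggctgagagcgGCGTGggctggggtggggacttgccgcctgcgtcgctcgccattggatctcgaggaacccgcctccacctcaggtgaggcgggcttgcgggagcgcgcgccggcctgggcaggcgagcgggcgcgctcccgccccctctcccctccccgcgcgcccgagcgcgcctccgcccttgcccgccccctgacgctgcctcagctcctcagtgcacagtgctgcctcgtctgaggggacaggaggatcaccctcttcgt

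BNIP3 (chr10:131981874-131982173, minus strand) carried 6 matches with first bases between -143 and -104 from the start, where a core and its mirror in CACGTG count as 2. CA12 (chr15:63381797-63382096, minus strand) had 2, at -234 and 40. ENO2 (chr12:6914330-6914629, plus strand) had 1 at -118, ADM (chr11:10304823-10305122, plus strand) 1 at -101 and HIF1A (chr14:61695263-61695562, plus strand) 1 at -204. SLC16A3 (chr17:82228185-82228484, plus strand) had none in this window, and 3 of its 5 windows held the core. These are matches of letters only.

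Other genes of the same pathways were read from lists chosen by function, with earlier results of these data known. Of all genes tested 28.8% rose and 27.1% fell, or 20.4% and 41.3% with library totals and 18.8% and 43.8% with TPM scaling. Of 10 tested pentose phosphate genes, the branch that makes NADPH and ribose from glucose, 6 fell and 1 rose (median log2 fold change -0.19). TKT, transketolase, had 417 and 396 CPM in M5, against 662 and 659 CPM in PBS, 1.63-fold lower (log2 fold change -0.70, SE 0.05, edgeR adjusted p = 1.66e-09). H6PD, an enzyme of the endoplasmic reticulum, was 1.29-fold lower. Of 13 tested pyruvate and lactate genes 6 fell and 3 rose (median -0.15), or 10 and 2 with library totals or TPM scaling, where more of all genes fell too. PDP1, a phosphatase that switches pyruvate dehydrogenase on, was 2.02-fold higher, with 271 and 280.1 CPM in M5 and 132 and 141 CPM in PBS. Its log2 fold change of 1.01 was 0.86 with library totals and 0.83 with TPM scaling. MPC2 and MPC1, the mitochondrial pyruvate carrier, were 1.64-fold and 1.59-fold lower, on at most 373 counts in a library. Of 6 other glycolysis enzymes tested 2 rose and 0 fell (1 and 1 with TPM scaling), namely ADPGK, a glucokinase that uses ADP, 1.34-fold and PGM2, a phosphopentomutase, 1.27-fold, the last not called with TPM scaling (log2 fold change 0.16, adjusted p = 0.087).

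Of 13 tested oxygen-sensing genes 5 rose and 1 fell (median 0.074), or 3 and 4 with library totals or TPM scaling. Under those scalings 20.4% and 18.8% of all genes rose and 41.3% and 43.8% fell, against 28.8% and 27.1% with TMM. ARNT2, a partner subunit for HIF alpha, had 85.5 and 85.9 CPM in M5, against 5.56 and 4.32 CPM in PBS, 17.3-fold higher (log2 fold change 4.12, SE 0.11, edgeR adjusted p = 2.32e-16). EPAS1, which encodes another HIF alpha subunit, had 343 and 328 CPM in M5, against 101 and 96.4 CPM in PBS, 3.40-fold higher, and ELOC, elongin C, was 1.31-fold higher. Of 23 tested other hypoxia-responsive genes 13 rose and 4 fell (median 0.52), or 12 and 4 with library totals and 12 and 5 with TPM scaling. STC1, the glycoprotein hormone stanniocalcin, had 2858 and 3269 counts in M5, against 8 and 23 in PBS, 179-fold higher (log2 fold change 7.49, SE 0.15), with log2 values of 6.93 and 8.42 without PBS replicate 1 and 2. ANGPTL4, an inhibitor of lipoprotein lipase, also rose, with 194 and 191 CPM in M5 and 13.3 and 14.2 CPM in PBS (edgeR adjusted p = 1.67e-18). BHLHE41, a transcriptional repressor of the circadian clock, went the other way, with 27 and 41 counts in M5 and 247 and 258 in PBS, 8.10-fold lower. Of 12 tested glycogen genes 5 rose and 2 fell (median 0.18), or 4 and 4 with TPM scaling, where 18.8% of all genes rose and 43.8% fell. Among them were GYS1, glycogen synthase, 1.77-fold and GYG1, its primer glycogenin, 1.65-fold higher, and PHKA2, a phosphorylase kinase subunit, 1.53-fold lower. ARNT2 and STC1 were low in PBS and BHLHE41 in M5, and each passed the filter largely through the other group. Limma on log2(FPKM + 1) compresses the change of low genes. It gave a log2 fold change of 2.78 for ARNT2, 4.99 for STC1 and -1.81 for BHLHE41, each still called.

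**Figure D5:**
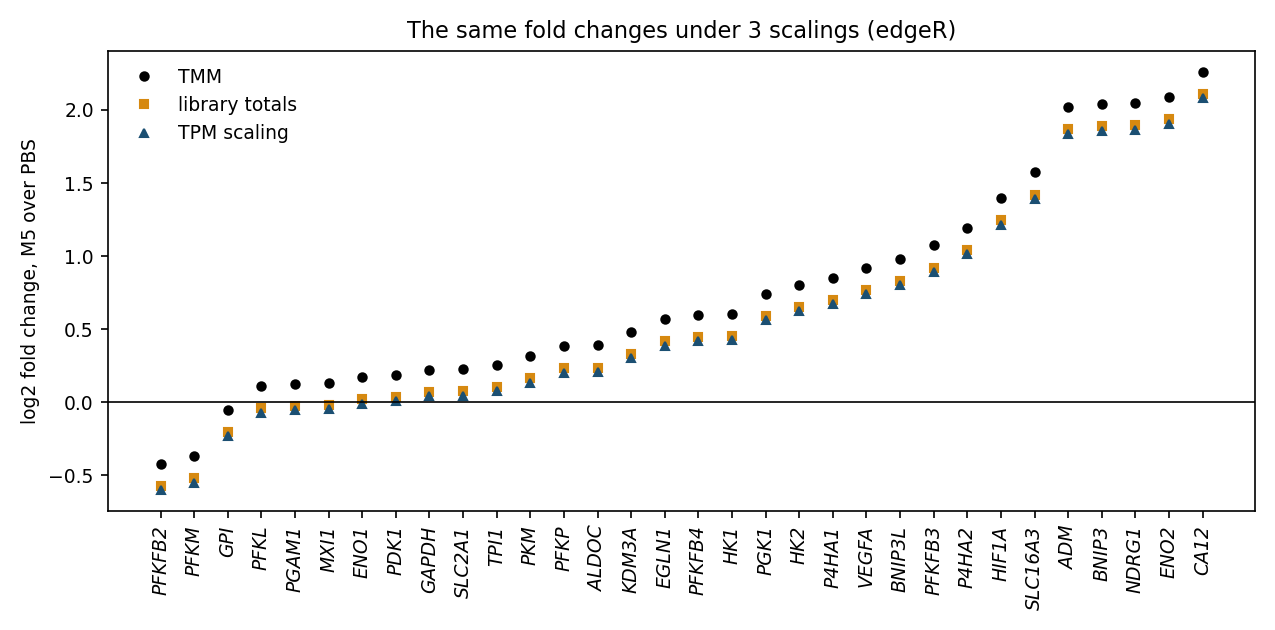
Log2 fold change of M5 over PBS for the 32 genes tested, in order of value, with TMM (circles), library totals (squares) and TPM scaling (triangles) in edgeR. The shift between scalings is about the same for every gene, so genes near 0, such as PGAM1 at 0.13, -0.025 and -0.055, change sign while CA12 at 2.26, 2.11 and 2.08 does not.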

How the data were processed

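Per the file headers, each of the 4 deposited files gives a read count and an FPKM value for every gene. The submitters' processing notes list GRCh38, HTSeq 0.13.5 and HISAT2. Not given in the sources used here were HISAT2's version, the annotation, whether strand was used and how multi-mapped reads were handled. Counts and FPKM as deposited imply the same gene length in all 4 files, to within 2.8e-08 bp. Per the labels' protocols, the library kit was NEBNext Ultra.

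The members and gene lists were chosen with earlier results of these data known. M5 was compared with PBS by edgeR 4.0.16 (glmQLFit and glmQLFTest, two-sided, R 4.3.3) with TMM scaling on all genes with a mean of at least 1 FPKM, with Benjamini-Hochberg adjustment over all 10809. The standard error is the log2 fold change over the square root of F. Values are given as libraries, since a group has 2. Between replicates the median chi-square per gene was 1.75 in M5 and 0.999 in PBS, where sampling alone gives 0.455, so no library was a copy of another. The fit was also run on simulated counts in which few genes changed, in both directions, so that run could not test the scaling assumption. Positions are from GENCODE 29 on GRCh38, which held 93.2% of identifiers; 42.2% of these had the deposited length. Alternatives were DESeq2 1.42.0, limma 3.58.1 on log2(FPKM + 1), median-of-ratios, library totals, TPM scaling, no filter, a mean of at least 5 FPKM, a replicate block, each library left out and an adjusted p of 0.01. Chosen after seeing the data were the fits without a filter that left out a library or changed the scaling. The rule for named genes was all members, and up to 3 called genes of each other list with the largest change. Promoters were to be printed for at most 6 called members with the largest change, and proteins, which were not used here, for at most 2 families. One gene that this rule names is not reported here.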

Additional observations from a re-analysis of the deposited data

How the results depend on the processing

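Of the 27 calls among the members, 21 held under each alternative in which the gene was tested. Over all genes, library totals called 4463 lower, TPM scaling 2027 higher and 4739 lower, and limma on log2(FPKM + 1) 2010 higher, against 3114 and 2929. The members' median, 0.58, was 0.43 with totals, 0.40 with TPM scaling and 0.29 with limma, which also scales by totals and adds a pseudocount. PFKL turned to -0.040, -0.070 and -0.039 with totals, TPM scaling and limma, PGAM1 to -0.025, -0.055 and -0.025, MXI1 to -0.0165, -0.047 and -0.0094, and ENO1 to -0.0086 with TPM scaling. Without a filter, SLC2A3 turned to -0.105 with totals, -0.13 with TPM scaling and -0.025 without M5 replicate 1, LDHA to -0.52 without M5 replicate 2 and LDHB to 0.12 without PBS replicate 2, all on few counts. By counts in place of FPKM the share differences (M5 minus PBS) were 18.9 percentage points for PFKFB3, 5.93 for P4HA2 and 0.375 for ENO2, against 14.4, 4.17 and 0.457, because counts are not divided by length. With each library left out, the members' median was between 0.51 and 0.66. The replicate numbers were not shown to pair libraries (correlation of deviations -0.0134); with a replicate block PGAM1 was lost (adjusted p = 0.0584), and 3132 and 2959 of all genes were called.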
